A study of Mus musculus with 23 samples.

Results

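9 genes that are commonly used as marks of monocytes and macrophages were followed through RNA from sorted splenic dendritic cells (DCs): Fn1, Lyz2, F13a1, Chil3, Adgre1, Cebpb, Ly6c2, C1qa and C1qb. They were found by symbol among 47729 gene identifiers, and 9 of 9 were present. The genes were picked because of their values after TLI in these libraries, so every TLI value of theirs is given as a description and carries no test. The series holds 23 libraries from spleens of wild type Balb/C mice, each a pool of mice sorted by CD8 and CD172 into 4 gates: DC1a (CD8hi CD172-), DC1b (CD8Int CD172+), DC2 (CD8lo CD172hi) and DC3 (CD8- CD172lo). 8 libraries came from untreated mice (pools 1 and 2, 2 libraries per gate, all in batch 1) and 15 from mice given TLI, a treatment named only by its abbreviation, which commonly stands for total lymphoid irradiation (pools 1 and 2 in batch 1, pools 3 and 4 in batch 2). TLI DC1a, DC1b and DC3 had 4 pools each and TLI DC2 had 3, since a DC2 library of TLI pool 2 was not analysed here. The study gated DCs as CD11c+ MHC class II+ cells after setting aside cells that bore Gr-1, B220 or other lineage marks of T, B and NK cells, and describes the RNA sorts as enriched CD11c+ subsets. Anti-Gr-1 binds neutrophils and, more weakly, Ly6C-bearing monocytes. The antibodies that the study's methods name for sorting DC subsets were against CD11c, B220, MHC class II, CD8 and CD172. Anti-Gr-1 was not among them, so it is not clear whether Gr-1-bearing cells were set aside in the RNA sorts. The number of mice in a pool was not given in the sources used here. Batch is the number written in the labels, with no statement of which step it refers to.

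Monocytes are made in the bone marrow, circulate in blood and also rest in the spleen, and after injury or depletion they enter tissues and can become macrophages or monocyte-derived cells that carry CD11c and MHC class II as DCs do. Classical monocytes bear much Ly6C and switch on C/EBP-driven genes for lysozyme, fibronectin and clotting factor XIII, while mature splenic macrophages are known for F4/80, complement C1q and, in the red pulp, the recycling of iron from aged erythrocytes. In bulk RNA from a gate, more cells of a type and more RNA of that type per cell cannot be told apart.

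Levels are in CPM, the usual scaling of a gene's count by the total of its library, here with TMM factors. Each library held 19256447 to 36997890 assigned counts, so that 3 counts, the floor used here, correspond to at most 0.147 CPM. Intervals and floors cover counting error only. Of the sorted gates, untreated DC1a held a summed 2855 to 3190 CPM of 8 markers of type 1 classical DCs (cDC1) and 27.1 to 28.0 CPM of 7 cDC2 markers, and untreated DC2 held 222 to 263 and 1468 to 1662 CPM. Untreated DC1b held 4913 to 7301 CPM of 8 plasmacytoid DC markers, against 55.2 to 258 CPM in the other untreated gates.

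Some members have a close relative whose reads the counting could exchange with theirs, so the first coding bases of these pairs are shown, with the bases that differ in capitals. Ly6c2 and Ly6c1 encode the Ly6C antigens. Their coding sequences of 393 bases each differ at 9 bases (97.7% identity), and 35.5% of the 76-base windows of Ly6c2 occur unchanged in Ly6c1.
Ly6c2: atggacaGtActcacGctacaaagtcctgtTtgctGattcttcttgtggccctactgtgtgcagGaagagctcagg
Ly6c1: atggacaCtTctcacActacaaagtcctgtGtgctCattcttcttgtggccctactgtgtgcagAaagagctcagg
Lyz2 and Lyz1 encode the macrophage and Paneth cell forms of lysozyme. They differ at 22 of 444 coding bases (95% identity), and 11.7% of the Lyz2 windows occur in Lyz1.
Lyz2: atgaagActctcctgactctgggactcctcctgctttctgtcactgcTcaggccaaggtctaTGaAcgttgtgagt
Lyz1: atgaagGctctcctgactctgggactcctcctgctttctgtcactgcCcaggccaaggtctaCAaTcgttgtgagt
For Chil3 and Chil4 the share of windows in common was 9.74%. Levels of Lyz2, Ly6c2 and Chil3 are therefore uncertain to the extent that reads were split with these relatives. Exons of Fn1, F13a1 and Cebpb overlap exons of a gene on the opposite strand, by 292, 74 and 312 bases, and reads of such partners cannot be told apart without strand.

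After TLI most separations from the untreated libraries were in DC1b and DC2. In DC1b, 7 of 9 members (Fn1, Lyz2, F13a1, Chil3, Adgre1, Cebpb and C1qa) lay higher in every TLI library than in either untreated library, and 1 (Ly6c2) lay lower in every TLI library. In DC2, 4 of 9 (Fn1, F13a1, Ly6c2 and C1qb) lay higher in every TLI library. In DC1a no member separated the TLI from the untreated libraries, and in DC3 only F13a1 did, at levels near the floor. Among the 19597 genes tested, all TLI libraries lay above both untreated libraries for 8.29% in DC1b, 10.7% in DC2, 5.64% in DC1a and 4.22% in DC3, and below both for 11.6%, 14.3%, 7.58% and 9.29%. These shares stand beside the members' counts for orientation, because the members were chosen on this contrast. The median difference over the 9 members, on the log2 CPM scale with a prior count of 2, was 2.70 in DC1b, 2.39 in DC2, 0.64 in DC1a and 0.10 in DC3, where the median over all genes tested was -0.05, -0.07, 0.00 and -0.07.

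**Figure D1:**
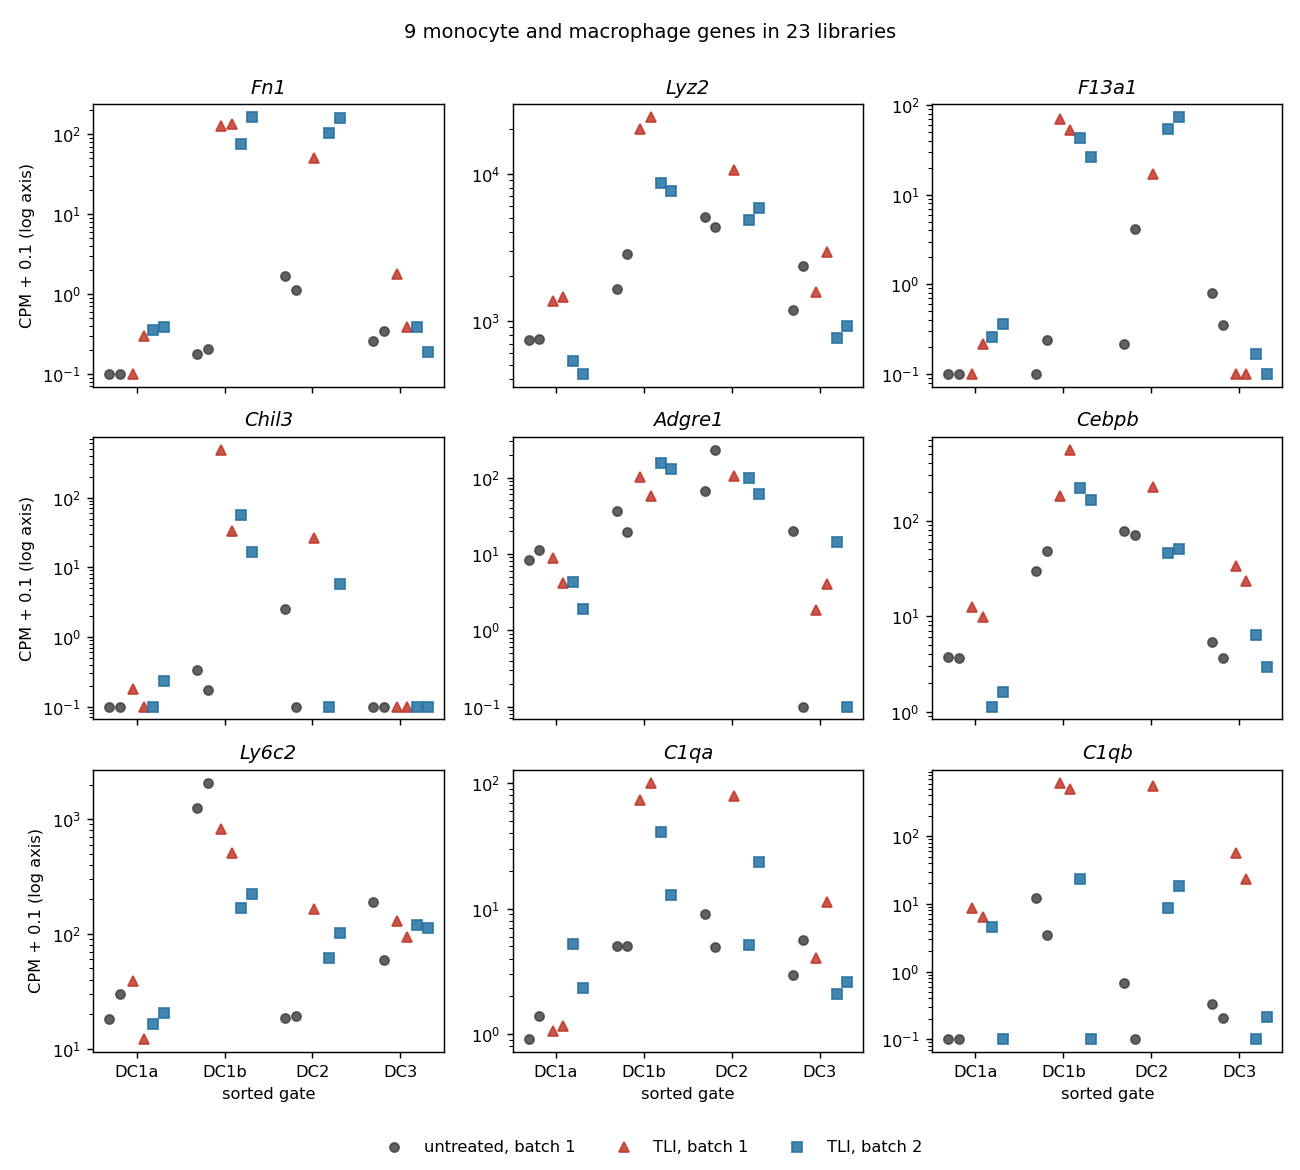
CPM + 0.1 (log axis) of each of the 9 genes in the 23 libraries by sorted gate, with 1 point per library: grey circles are untreated pools, red triangles TLI pools of batch 1 and blue squares TLI pools of batch 2. Fn1 and F13a1 stand at 4.06 CPM or less except in TLI DC1b and TLI DC2, while Ly6c2 is highest in untreated DC1b.

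Fn1 encodes fibronectin, a matrix glycoprotein that blood monocytes and many macrophages make (chr1:71585520-71653200, minus strand, GRCm38). In DC1b, Fn1 stood at 128, 134, 74.3 and 163 CPM in TLI pools 1 to 4 and at 0.0797 and 0.107 CPM in the untreated pools, which were 2 and 3 counts. The ratio of the pooled libraries was 1308, with a 95% exact interval of 560 to 4029 for counting error. In DC2, Fn1 stood at 50.7, 104 and 160 CPM in TLI pools 1, 3 and 4 and at 1.57 and 1.03 CPM in untreated pools, an 80.9-fold difference of means. In DC1a it did not exceed 0.291 CPM in any library, and in DC3 it did not exceed 1.67 CPM. Fibronectin RNA was thus listed above 50 CPM in 7 libraries, the 4 of TLI DC1b and the 3 of TLI DC2, whose ranges overlapped.

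F13a1 encodes the catalytic A chain of clotting factor XIII, a transglutaminase that monocytes and resident macrophages carry (chr13:36867178-37050244, minus strand). It followed Fn1. In DC1b it stood at 70.6, 52.5, 42.7 and 26.5 CPM after TLI, and the untreated libraries held 0 and 4 counts. The pooled ratio was 610 (95% exact interval 238 to 2239). In DC2 it stood at 17.0, 54.3 and 73.1 CPM after TLI against 0.115 and 4.06 CPM. DC3 ran the other way at low levels, with 18 and 7 counts in untreated libraries and 0, 0, 2 and 0 counts after TLI. Over the 23 libraries Fn1 and F13a1 had the closest pair of patterns among the members (Pearson r of log2 CPM 0.941, n = 23 libraries that share pools and batches).

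Lyz2 encodes lysozyme M, an enzyme that splits bacterial cell walls and is abundant in granulocytes, monocytes and macrophages (chr10:117277331-117282321, minus strand). In DC1b it stood at 20232, 24122, 8631 and 7647 CPM after TLI and at 1633 and 2819 CPM in untreated pools, a 6.81-fold difference of means. In DC2 the levels were 10617, 4799 and 5825 CPM after TLI and 5045 and 4307 CPM without, and the groups overlapped. Unlike Fn1, Lyz2 was found in every library, at no less than 435 CPM. Per kb of exon it was the member with the highest level in all 8 groups, at 11518 CPM per kb in TLI DC1b, where Fn1 reached 10.7 and F13a1 7.13 CPM per kb. Its relative Lyz1, 183 to 453 CPM in TLI DC1b and 28.9 to 67.0 CPM in untreated DC1b, had the pattern most like that of Lyz2 among 10156 genes compared (r = 0.956, n = 23 libraries).

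Chil3 encodes a secreted chitinase-like lectin (Ym1) of alternatively activated macrophages, and of neutrophil precursors in the marrow (chr3:106147554-106167564, minus strand). TLI DC1b pools held 485, 33.0, 55.9 and 16.4 CPM and untreated DC1b pools 0.239 and 0.0711 CPM, 8 counts in all, for a pooled ratio of 798 (95% exact interval 405 to 1848). TLI pool 1 carried most of this signal. In DC2 it stood at 26.1 CPM in TLI pool 1, at 5.68 CPM in pool 4 and at 0 in pool 3, against 2.41 and 0 CPM in untreated pools. In DC1a it was at or under 4 counts in each library, and in DC3 it was listed at 0 in all 6 libraries. Its relative Chil4 reached 4.48 CPM in TLI DC1b pool 1 and at most 0.339 CPM elsewhere.

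Adgre1 encodes F4/80, an adhesion receptor used to stain mouse macrophages (chr17:57358691-57483527, plus strand). TLI DC1b held 103, 57.4, 155 and 131 CPM and untreated DC1b 36.1 and 19.5 CPM, a 4.02-fold difference of means. In DC2 the untreated libraries stood at 66.5 and 230 CPM and the TLI libraries between 61.3 and 105 CPM. Untreated DC2 thus already had as much Adgre1 as DC1b had after TLI, although untreated DC2 against untreated DC1b did not pass edgeR's test (log2 fold change 2.41, SE 1.92, adjusted p = 0.639). It stayed at or under 11.2 CPM in DC1a and at or under 19.7 CPM in DC3.

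Cebpb encodes C/EBPβ, a bZIP transcription factor of emergency granulopoiesis and of macrophage activation (chr2:167688915-167690418, plus strand, a single exon). TLI DC1b held 182, 552, 220 and 164 CPM, and untreated DC1b 29.8 and 47.5 CPM, a 7.24-fold difference of means with no overlap. In DC2, TLI pool 1 stood at 223 CPM, above the untreated 77.9 and 70.5 CPM, while pools 3 and 4 stood below them at 46.1 and 49.9 CPM. The same split by batch appeared at lower levels in DC1a, where TLI pools 1 and 2 held 12.5 and 9.75 CPM, pools 3 and 4 held 1.03 and 1.52 CPM and untreated pools held 3.66 and 3.57 CPM. In DC3 the batch 1 pools held 33.5 and 23 CPM, and the remaining libraries 2.85 to 6.25 CPM.

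Ly6c2 encodes the Ly6C antigen by which classical monocytes are sorted, and which plasmacytoid DCs also bear (chr15:75108158-75111970, minus strand). Its TLI and untreated libraries separated in opposite directions in DC1b and DC2. In DC1b it stood at 824, 505, 169 and 225 CPM after TLI, all below the untreated 1252 and 2089 CPM, a 3.88-fold lower mean. In DC2 it stood at 164, 61.6 and 102 CPM after TLI, all above the untreated 18.4 and 19.2 CPM, a 5.81-fold higher mean. In DC3 (94.0 to 130 CPM after TLI, 189 and 59.7 CPM without) and DC1a (12.0 to 38.5 CPM, and 18 and 29.8 CPM) the groups overlapped. Ly6c1 ran in parallel, at 117 to 411 CPM against 815 and 1148 CPM in DC1b and at 50.1 to 84 CPM against 9.28 and 14.7 CPM in DC2 (r with Ly6c2 = 0.990, n = 23 libraries). Beside the DC1b values stand those of the 8 plasmacytoid DC markers, whose sum was 4913 and 7301 CPM in untreated pools and 68.6 to 178 CPM after TLI. In both groups 8 of 8 were above the floor in at least 1 library. The part of plasmacytoid DC RNA in the Ly6c2 difference was not tested.

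C1qa and C1qb encode the A and B chains of C1q, the complement component that binds antibody and dying cells and that macrophages supply. With C1qc they form a cluster on the minus strand of chromosome 4, C1qb at chr4:136880129-136886187 and C1qa at chr4:136895917-136898803. In DC1b, C1qb stood at 622 and 505 CPM in TLI pools 1 and 2, at 23.6 CPM in pool 3 and at 0 in pool 4, against 12.1 and 3.34 CPM in untreated pools. C1qa stood at 73.7, 101, 41.0 and 12.7 CPM in the same TLI pools and at 4.98 CPM in each untreated pool. The partner chain C1qc had 565, 331, 64.7 and 22.4 CPM, so pool 4 had reads of C1qa and C1qc where C1qb was listed at 0. In DC2, C1qb stood at 543 CPM in TLI pool 1 and at 8.47 and 18.4 CPM in pools 3 and 4, against 0.573 and 0 CPM. There C1qa stood at 79.4, 5.02 and 23.3 CPM in TLI pools 1, 3 and 4 against 9.05 and 4.86 CPM, and the groups overlapped. C1qc overlapped as well, at 288, 21.4 and 0.0628 CPM against 1.22 and 0 CPM. In DC3, C1qb was found at 55.5 and 23 CPM in the batch 1 TLI pools and at no more than 0.235 CPM in the other libraries.

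The pattern most like each member, sought among genes that are not members, gives a further view of which transcripts came with them. Fn1 was closest to Fcgr1, the high-affinity IgG receptor CD64 (r = 0.940), which was also closest to C1qa (r = 0.846). F13a1 was closest to Ifitm2 (r = 0.875), Adgre1 to Mcemp1 (r = 0.910), Cebpb to G0s2 (r = 0.935) and C1qb to Pld3 (r = 0.822). Chil3 was closest to Tnfsf13 (r = 0.919), then to Elane (r = 0.904) and Fcnb (r = 0.893), a neutrophil protease and a ficolin. Among the members themselves the least alike were Adgre1 and Ly6c2 (r = 0.247). These are descriptions over 23 libraries that share pools, batches and depth.

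The pools did not carry the members evenly. In TLI DC1b the mean of the batch 1 pools over that of the batch 2 pools was 1.10 for Fn1, 0.560 for Adgre1, 1.78 for F13a1 and 1.91 for Cebpb, and 2.72 for Lyz2, 3.26 for C1qa, 3.37 for Ly6c2, 7.17 for Chil3 and 47.8 for C1qb. In TLI DC2, with 1 pool in batch 1, Fn1 and F13a1 were lower in that pool (ratios 0.384 and 0.267) and C1qb was higher (40.4). Against the untreated libraries, 8 of 9 members lay above in both batch 1 TLI pools of DC1b, where 19.6% of all genes tested did, and 7 of 9 in both batch 2 pools, where 21.9% did. Without TLI pool 1 the same 7 members lay above in the other 3 DC1b pools, where 10.5% of all genes tested did. C1qb thus exceeded 500 CPM in batch 1 pools alone. No untreated library belongs to batch 2, so for pools 3 and 4 batch and treatment cannot be told apart.

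**Figure D2:**
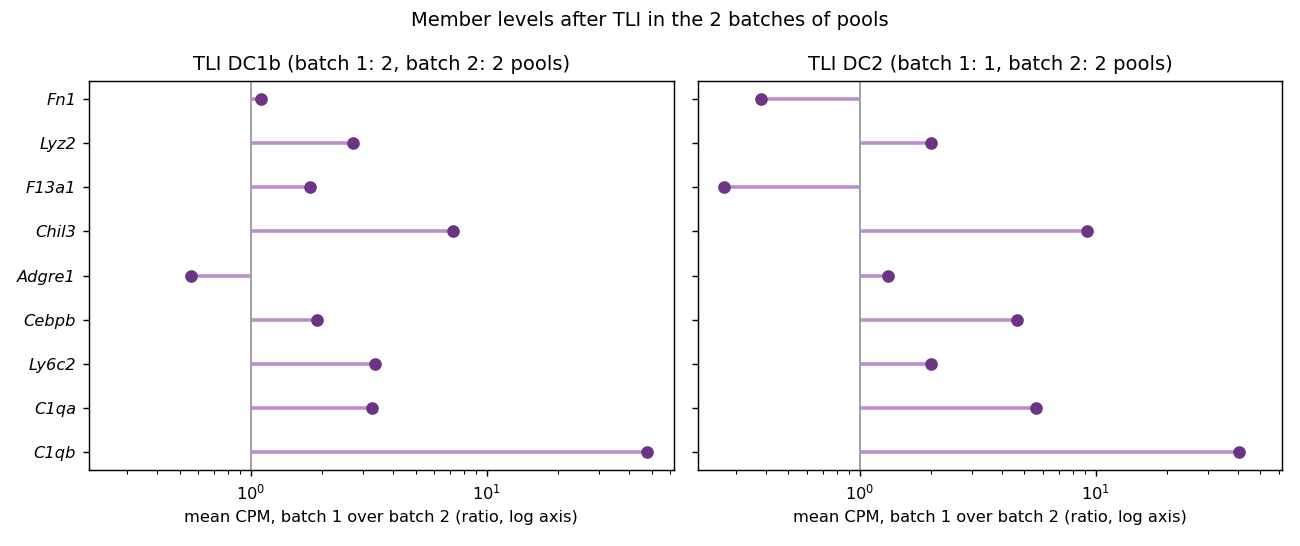
Ratio of mean CPM in batch 1 TLI pools over batch 2 TLI pools (log axis) for each member in DC1b (left) and DC2 (right, 1 batch 1 pool), with the grey line at equal means. C1qb lies farthest to the right in both gates, at 47.8 and 40.4, and Fn1 lies near the line in DC1b at 1.10.

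Summed lists of other cell types differed between libraries too, and not all in the pattern of the members. The summed level of 16 neutrophil genes was 24417, 1619, 1927 and 10348 CPM in TLI DC1b pools 1 to 4. There 16 of 16 were above the floor in at least 1 pool, though not all in every pool (Retnlg 0 to 37.4 CPM). The sum was 1.92 to 20.4 CPM in untreated DC1b, where Retnlg, Prtn3, Mmp8 and Mmp9 were at or under the floor. In DC2 it was 2198, 216 and 133 CPM after TLI and 2.29 to 59.5 CPM without. The sum of 10 erythroid genes, mostly hemoglobin, reached 19142 to 138622 CPM in the 7 batch 1 TLI libraries of all 4 gates and 172 to 7933 CPM in the 8 batch 2 libraries. The 7 markers shared by classical DCs, among them MHC class II genes, summed to 11780 to 53671 CPM in TLI DC1b and 27291 to 39189 CPM in untreated DC1b. The 7 platelet and megakaryocyte genes did not exceed 87.6 CPM in sum in any library, and the 8 B cell genes summed to 76 to 135 CPM in TLI DC1b and 160 to 305 CPM in untreated DC1b. The 7 cDC2 markers summed to 149 to 555 CPM in TLI DC1b and 612 to 1232 CPM in untreated DC1b, the 8 cDC1 markers to 857 to 1759 and 1648 to 1786 CPM, the 8 T cell genes to 18.6 to 281 and 43.3 to 66.1 CPM, and the 7 natural killer cell genes to 111 to 289 and 322 to 350 CPM. The parts of these cell types' RNA in the members' values were not tested.

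**Figure D3:**
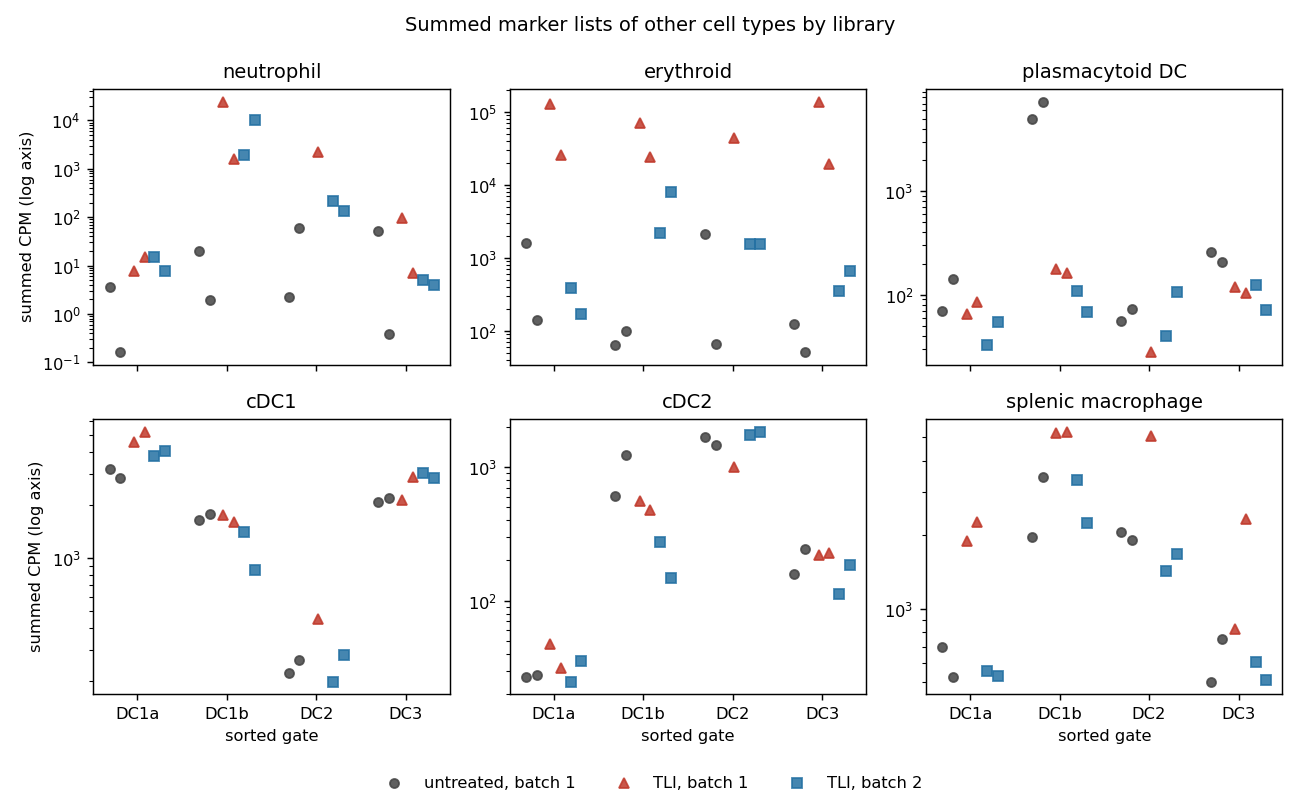
Summed CPM (log axis) of 6 marker lists in each of the 23 libraries by sorted gate, with the same symbols for untreated pools and for TLI pools of batch 1 and 2. Neutrophil genes are high in TLI DC1b, erythroid genes in batch 1 TLI pools of every gate, and plasmacytoid DC genes in untreated DC1b.

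Genes beyond the members were tested, from lists also drawn up with earlier results known. 5 lists of 100 genes, none of them a member, covered classical monocytes, non-classical monocytes, splenic macrophages, complement and myeloid transcription factors, and 93 passed the filter on low counts. In DC1b, 4 of 93 rose after TLI and 0 fell (edgeR's quasi-likelihood test, adjusted p under 0.05), where 0.199% of all genes tested rose and 0.214% fell. 38 of the 93 had an unadjusted p under 0.05, against 12.4% of all genes. The batch term of this fit was estimated from the TLI pools alone and shared by all gates. The fitted folds therefore compare TLI at the level of batch 1 with the untreated libraries, and are not folds of the means over all 4 pools. Vcam1, an adhesion molecule of red pulp macrophages, stood at 238, 119, 60.3 and 31.9 CPM after TLI and at 1.08 and 0.320 CPM without (log2 fold change 8.42, SE 1.63, adjusted p = 0.0278). Ifitm3, which blocks viral entry and is high in Ly6C monocytes, stood at 4026, 2608, 3095 and 4586 CPM against 690 and 955 CPM (log2 fold change 1.95, SE 0.31, adjusted p = 0.00913). Pglyrp1, a peptidoglycan-binding protein of granules, stood at 266, 214, 171 and 255 CPM against 55.4 and 48.5 CPM (log2 fold change 2.22, SE 0.44, adjusted p = 0.0333). Each of these separated all TLI from all untreated DC1b libraries, which the rule for naming a called gene required. The fourth gene, Cd14, the lipopolysaccharide co-receptor, is named after its values were seen: it stood at 391 and 785 CPM in TLI pools 1 and 2 and at 53.9 and 18.2 CPM in pools 3 and 4, overlapping the untreated 22.6 and 53.1 CPM (log2 fold change 4.11, SE 0.79, adjusted p = 0.0257).

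These 4 calls depended on the libraries. In limma with pool as a random replicate block, 14 genes of the lists rose in DC1b and 1 fell, where the tool changed together with the block and the estimated block correlation was 0.00267. In edgeR, 0 rose without the batch 2 libraries, and again 0 without untreated DC1b pool 1 or pool 2. In DC1a, DC2 and DC3, edgeR called 0 of the 93 genes in either direction, with 26, 23 and 19 at an unadjusted p under 0.05 (9.76%, 9.01% and 10.4% of all genes tested). In edgeR, adjusted p under 0.05 was reached by 0.0102%, 0.0612% and 0.0255% of all genes in these gates. Of the list genes, DESeq2 called 11 higher and 2 lower, 13 higher and 1 lower, and 9 higher and 1 lower. The limma fit with the replicate block called 3 higher and 1 lower in DC2. Shares over all genes were not worked out for DESeq2 or limma. Their list counts therefore have no background here, and the edgeR shares do not serve as one.

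By list, the classical monocyte genes showed the widest separation. In DC1b, all TLI libraries lay above both untreated libraries for 16 of 20 classical monocyte genes, among them Ccr2, Vcan and Hp, for 10 of 15 non-classical monocyte genes and for 12 of 24 splenic macrophage genes, among them Csf1r, Fcgr1 and Slc40a1. The count was 6 of 17 for complement and 6 of 19 for myeloid transcription factors. In DC2 the counts were 12, 5, 6, 2 and 3 in the same order, in DC1a 5, 3, 3, 2 and 0, and in DC3 4, 0, 2, 2 and 2. All TLI libraries lay below both untreated libraries for 1, 0, 0, 1 and 0 genes in DC1b, for 0, 3, 0, 1 and 4 in DC2, for 1, 1, 0, 1 and 0 in DC1a and for 0, 1, 0, 1 and 0 in DC3. Over the 93 genes, 51.6% lay above in DC1b, 30.1% in DC2, 14.0% in DC1a and 10.8% in DC3, and 2.15%, 7.53%, 3.23% and 2.15% lay below. Of all genes tested, 8.29%, 10.7%, 5.64% and 4.22% lay above in the same gates, and 11.6%, 14.3%, 7.58% and 9.29% below. Some list counts were near these shares, such as complement in DC2 with 11.8% above. The lists were drawn up with earlier results of these data known, so these shares are a description and not independent evidence. The median log2 CPM difference over the 93 genes was 1.41, 0.80, 0.21 and 0.27. Fcgr1 stood at 51.5, 92.9, 5.93 and 14.8 CPM in TLI DC1b, where it was listed at 0 in both untreated libraries (edgeR adjusted p = 0.103). Spic, the red pulp macrophage factor, stood at 487, 252, 78.3 and 19.1 CPM in TLI DC1b and at 52.5 and 28.4 CPM in untreated DC1b (adjusted p = 0.232), and Hmox1, the heme-degrading enzyme, at 414, 557, 11.4 and 17.1 CPM against 4.58 and 14.8 CPM. These 3 examples were chosen after their values were seen. Like C1qb, they were highest in the batch 1 pools.

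**Figure D4:**
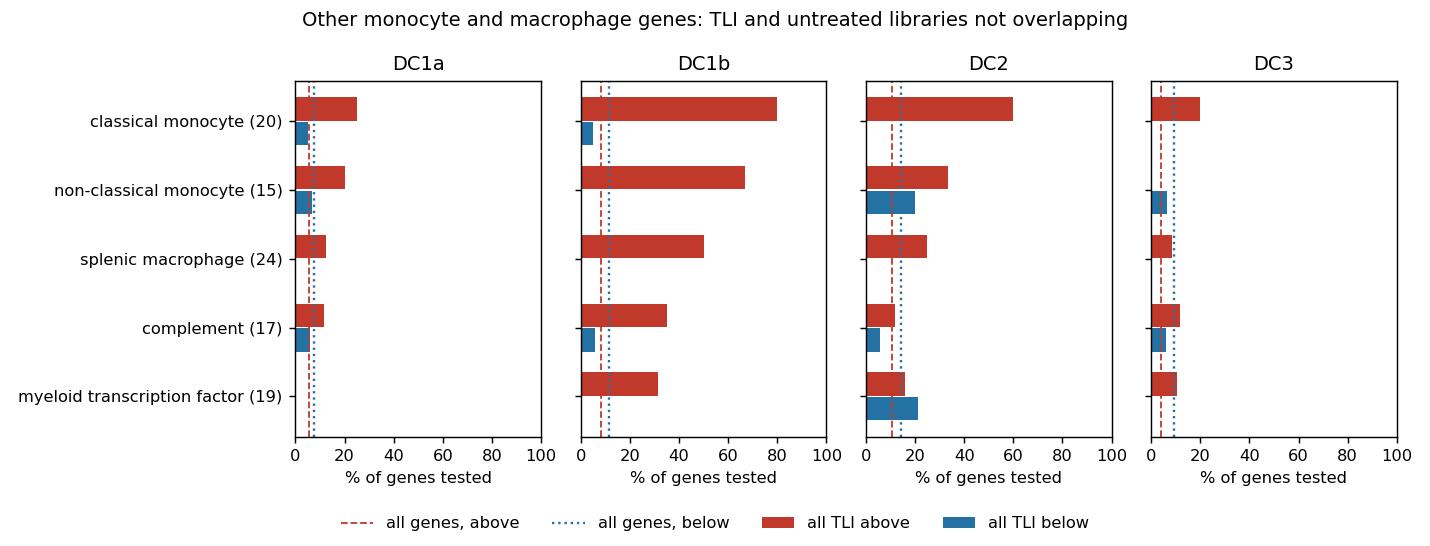
Percentage of the tested genes of 5 lists (number tested in brackets) for which every TLI library of a gate lay above (red) or below (blue) both untreated libraries, with dashed and dotted lines for the same shares of all 19597 genes. The bars are longest in DC1b, where 80.0% of the classical monocyte genes lay above.

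Without treatment, the gates already differed in some members. The members were chosen on TLI against untreated libraries, and the same untreated libraries enter here. This contrast is thus a different one but not independent of that choice. 8 of the 9 could be tested, since Chil3 did not pass the filter on low counts, which gives 48 tests in 6 comparisons with 2 pools per gate. 6 of the 48 (12.5%) passed an adjusted p under 0.05 in edgeR's quasi-likelihood test, against 0.956% of all tests over all genes. These 6 came from 3 genes, Cebpb, Ly6c2 and Lyz2. The comparisons share libraries and are not independent of each other.

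Untreated Cebpb was low in DC1a (3.66 and 3.57 CPM) and DC3 (5.28 and 3.56 CPM), higher in DC1b (29.8 and 47.5 CPM) and highest in DC2 (77.9 and 70.5 CPM). Between the gates called here, the share of all genes called was 1.11% for DC1b against DC1a, 2.67% for DC2 against DC1a, 0.51% for DC2 against DC1b and 1.01% for DC3 against DC2. Cebpb was higher in DC1b than in DC1a (log2 fold change 3.41, SE 0.49, edgeR adjusted p = 0.0384) and in DC2 than in DC1a (4.34, SE 0.51, adjusted p = 0.0160), and lower in DC3 than in DC2 (-4.04, SE 0.50, adjusted p = 0.0279). DC1b and DC2 did not overlap but did not pass the test (0.93, SE 0.44, adjusted p = 0.420). With pool as a replicate block the adjusted p was 0.0876, 0.0455 and 0.0723 for the 3 calls, and over all alternatives it ranged from 1.76e-10 to 0.322, from 7.11e-17 to 0.185 and from 5.78e-15 to 0.128. Untreated Ly6c2 was higher in DC1b than in DC1a (6.12, SE 0.71, adjusted p = 0.0220) and lower in DC2 than in DC1b (-6.49, SE 0.72, adjusted p = 0.0350), with means of 1670 CPM in DC1b, 124 CPM in DC3, 23.9 CPM in DC1a and 18.8 CPM in DC2. The replicate block gave adjusted p of 0.0589 and 0.0762, within ranges of 3.58e-24 to 0.218 and 8.64e-27 to 0.149. Untreated Lyz2 was higher in DC2 than in DC1a (2.63, SE 0.40, adjusted p = 0.0310, and 0.0491 with the replicate block, range 1.46e-08 to 0.242), at means of 4676 and 744 CPM. With the replicate block 2 of the 6 calls remained, those of Cebpb and Lyz2 between DC2 and DC1a, and without either library of untreated DC1a or DC2 no call was left.

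Set in order over the 8 groups, Fn1, Lyz2, Chil3, Cebpb, C1qa and C1qb had their highest mean in TLI DC1b and their second in TLI DC2, whose ranges overlapped in each case. F13a1 had 48.1 CPM in both groups. Adgre1 was highest in untreated DC2 (mean 148 CPM, SD 116, n = 2), followed by TLI DC1b (112 CPM, SD 42.1, n = 4) and TLI DC2 (87.9 CPM, SD 23.3, n = 3), all overlapping, and then, apart from them, by untreated DC1b (27.8 CPM, SD 11.8, n = 2). Ly6c2 was highest in untreated DC1b (1670 CPM, SD 591, n = 2), apart from TLI DC1b (431 CPM, SD 300, n = 4), which overlapped untreated DC3. For Lyz2 and Cebpb the next group was untreated DC2, which overlapped TLI DC2 and stood apart from untreated DC1b. The lowest mean belonged to untreated DC1a for Fn1, Lyz2, F13a1, Cebpb, C1qa and C1qb.

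Promoter sequences were in the RefSeq tables used here for 6 members (Lyz2, F13a1, Chil3, Cebpb, Ly6c2 and C1qb). Those of Ly6c2 and C1qb are shown because the TLI libraries of both lay above the untreated ones in DC2 but not in DC1b, each as the 250 bases before an annotated start (GRCm38.p6, minus strand). Both strands were searched for TTGCNNAA, a C/EBP motif, and GAGGAAGT, a PU.1 motif, with matches in capitals. The first occurs in 9.55% and the second in 2.44% of 27025 promoters of this length. The C/EBP motif had no match in the 6 members, and the PU.1 motif matched in Ly6c2 alone. It matched 1 time in the Ly6c2 bases shown. The 250 bases before another annotated Ly6c2 start (chr15:75111938-75112187), which overlap those shown, held 2 matches. A match is a description of letters and no evidence of binding.
Ly6c2 (chr15:75111972-75112221): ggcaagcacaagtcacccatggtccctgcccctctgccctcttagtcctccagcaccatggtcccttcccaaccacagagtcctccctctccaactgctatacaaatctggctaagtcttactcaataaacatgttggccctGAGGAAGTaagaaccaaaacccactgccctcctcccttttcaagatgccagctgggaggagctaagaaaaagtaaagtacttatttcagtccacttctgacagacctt
C1qb (chr4:136886201-136886450): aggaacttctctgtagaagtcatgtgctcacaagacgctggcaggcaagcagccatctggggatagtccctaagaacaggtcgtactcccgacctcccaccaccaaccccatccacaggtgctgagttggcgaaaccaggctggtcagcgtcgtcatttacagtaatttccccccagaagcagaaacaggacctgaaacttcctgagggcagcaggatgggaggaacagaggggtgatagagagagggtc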

How the data were processed

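RNA of 23 sorted DC libraries was analysed. Per the labels, cells were sorted into reaction buffer, cDNA was made with a SMARTseq v4 kit and libraries with KAPA HyperPlus. The submitters' processing notes name Trimmomatic, HISAT2, StringTie and DESeq2 and the build GRCm38. The authors deposited estimated counts per gene as whole numbers, which were used as they are in place of the plain read counts that the tests had assumed. Such estimates can split reads between near-identical genes. 47224 of 47729 identifiers had a symbol.

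Counts were scaled by TMM and tested with edgeR 4.0.16 (quasi-likelihood, R 4.3.3) after its expression filter, which left 19597 genes in the fit of all 23 libraries (gate by treatment, with batch as a covariate) and 16676 in that of the 8 untreated libraries. P-values were adjusted by Benjamini-Hochberg over all genes tested. The p-values rest on a gene's spread between libraries within groups, estimated over all gates of a fit together. In the main fits, gates sorted from the same pool of mice counted as independent libraries. DESeq2 1.42.0 and limma 3.58.1 served as alternatives, beside other scalings, no filter, no batch term, batch 1 alone, the pool as a replicate block and leaving out each library. Same-numbered libraries of a treatment came from the same pool of mice. Group means were subtracted from log2 CPM, with no batch term. The correlation of same-pool libraries was then 0.0801 to 0.393 for TLI and -0.00585 to 0.0159 for untreated pools. With 2 untreated libraries per group, untreated values for same and different pools mirror each other by construction. For TLI libraries of different pools the correlation was 0.0829 to 0.304 within a batch and -0.369 to -0.0911 across batches. The estimated correlation of the random pool block was 0.00267. These values do not separate pool from batch. The code was tested on simulated counts with known changes in 200 genes, drawn with no batch or pool effect. For TLI against untreated DC1b, 7 of 100 4-fold and 30 of 100 16-fold changes were recovered, with 0 false calls among 37. For untreated DC2 against DC1a, 4 of 100 and 42 of 100 were recovered, with 3 false calls among 49. A gene that was not called may therefore still differ. Log2 CPM used a prior count of 2.

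The members and lists were chosen with earlier results of these data known. All members were named. So were Lyz1, Ly6c1, Chil4 and C1qc, up to 10 increases and 5 decreases among list genes called in a gate with a mean of at least 5 CPM and no overlap, and for each member the genes with the highest Pearson r, from 3 per member.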

Additional observations from a re-analysis of the deposited data

Results flagged for a closer look

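In TLI gates with 4 pools, 1 pool stood far from the other 3 in 4 of 43 sets of values, by the gap to its nearest neighbour over the range. The cut used, 0.829, is passed by about 1 in 20 sets of independent, normally distributed values. These CPM share pools and batches, and Chil3 and Chil4 can exchange reads, so the count is not set against chance. Chil3 in TLI DC1b stood at 485 CPM in pool 1 and at 16.4 to 55.9 CPM in the others, and its relative Chil4 at 4.48 CPM in pool 1 and at most 0.339 CPM in the others. That library also had the highest summed neutrophil genes of the 23, whose part in these values was not tested. Cebpb in TLI DC1b stood at 552 CPM in pool 2 and at 164 to 220 CPM in the others. Fn1 in TLI DC3 stood at 1.67 CPM in pool 1 and at 0.0863 to 0.292 CPM in the others.

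Some genes had all TLI libraries above the untreated ones in 1 gate and all below in another. Ly6c2 was higher after TLI in DC2 and lower in DC1b, with log2 CPM differences 4.61 apart, and Ly6c1 likewise with 4.65. F13a1 was higher in DC1b and DC2 and lower in DC3, with differences 11.06 and 8.09 apart, although in DC3 it had no more than 18 counts in a library. The difference was not tested in any of these cases.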

How the results depend on the processing

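Alternatives moved the counts of list genes called after TLI. In DC1b (4 higher, 0 lower), DESeq2 called 29 higher, limma with the random replicate block 14 higher and 1 lower (tool and block changed together, estimated block correlation 0.00267), no batch term 1 higher and batch 1 alone 0. Leaving out single libraries gave 0 to 5 higher in DC1b, with 0 without either untreated DC1b library and 2 without TLI DC1b pool 2, and leaving out all libraries of TLI pool 1, chosen after seeing the data, gave 5. In the other gates, where edgeR called 0 and leaving out a library gave 0, DESeq2 called 11 higher and 2 lower in DC1a, 13 and 1 in DC2 and 9 and 1 in DC3. No filter gave 1 higher in DC1a, 2 in DC2 and 2 in DC3, batch 1 alone 1 in DC1a, and limma with the random replicate block 3 higher and 1 lower in DC2. The 6 member calls between untreated gates became 14 with DESeq2, 11 without a filter, 11 in the fit of all 23 libraries, 2 with the fixed replicate block and 0 to 4 when 1 library was left out. The cause of these shifts was not tested, except that leaving out libraries leaves fewer samples. The share of all genes called was not worked out for the alternative fits. A fit that calls more genes of every kind thus cannot be told from a result about the members or lists. No tested value, and no member difference whose TLI and untreated libraries did not overlap, changed direction. The members' log2 differences moved by less than the spread between pools in 376 of 387 alternative values, and the other 11 came from another prior count or from batch 1 alone. With 2 untreated pools per gate and low counts of Fn1, F13a1 and Chil3 in untreated gates, folds against them rest on few counts.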
